A study of Mus musculus with 6 samples.

Results

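Collagens are the main structural proteins of the matrix around muscle fibres, and the genes described here are those that encode their chains. Members were all rows of the 6 count tables whose symbol reads Col, a chain type number, the letter a and a chain number. The rule matched 44 rows, of which Col6a4, Col9a2 and Col10a1 had 0 counts in every library, so 41 genes were described out of 16491 rows with at least 1 count. They comprised 9 fibrillar chains (types I, II, III, V and XI), 8 basement membrane chains (types IV, XV and XVIII), 5 type VI chains and 19 other chains. RNA came from gastrocnemius muscle of male wild-type C57/BL6J mice aged 20 months. The inotodiol group (3 mice) was dosed by mouth each day for 10 weeks with inotodiol, a triterpenoid found in chaga mushrooms, at 0.35 mg/kg. The vehicle group (3 mice) was given the carrier alone, made of 40% polyethylene glycol with 5% Tween 80 in 0.9% saline. The series title concerns age-related muscle wasting and the liver X receptor beta, and the comparison asks which muscle transcripts differ with treatment. No young or untreated group was among the samples analysed here.

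Collagen chains wind around one another into a rod, for which glycine recurs at a fixed spacing along the chain. Fibrillar collagens of types I and III form the tensile fibres of endomysium, perimysium and tendon, with type V chains buried inside the fibres and setting their width. Type IV collagen builds the sheet of the basement membrane around each muscle fibre and capillary, and types XV and XVIII are proteoglycan collagens anchored in it. Type VI collagen forms beaded filaments that link the basement membrane to the interstitial fibres, and loss of it causes muscle disease in people. Most interstitial collagen in muscle is made by fibroblasts and fibro-adipogenic progenitors.

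Libraries held 8961893 to 9953764 counts, and 11700 of 23282 rows passed the filter on low counts. Levels are given as CPM (counts scaled to a fixed library size) after TMM scaling, which corrects library totals for composition. Markers of muscle fibres, among them Acta1, Ckm and Ttn, were tested for all 8 genes of their list and summed to 169990 to 200410 CPM, so the tissue label fitted the data. In bulk tissue, fewer cells of a type and less RNA per cell cannot be told apart. Libraries did not group by treatment: over all genes inotodiol 3 differed from inotodiol 1 and 2 by a chi-square per degree of freedom of 46.7 and 50.6, and from vehicle 1 and 3 by 19.4 and 16.7. The ribosomal RNA precursor row Rn45s took 10.2%, 9.56% and 4.33% of counts in inotodiol mice 1 to 3, against 3.97%, 6.82% and 4.38% in vehicle mice 1 to 3. Vehicle replicate 3 stood apart in collagen transcripts before any comparison. The 41 genes together took 539, 475 and 454 CPM in inotodiol mice 1 to 3, against 383, 641 and 1271 CPM in vehicle mice 1 to 3. The inotodiol mean was 489.6 ± 44.3 CPM and the vehicle mean 765 ± 457 CPM (SD, n = 3 each), and the groups overlapped.

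No collagen chain passed edgeR's quasi-likelihood test at an adjusted p of 0.05, with 25 of the 41 members tested and none of all 11700 genes called (0.0%). The smallest adjusted p among members was 0.893. At an unadjusted p under 0.05 edgeR gave 4 members, all lower with inotodiol, namely Col1a1, Col1a2, Col3a1 and Col8a2, where 2.21% of all genes tested were lower at that level. At that level DESeq2 gave Col8a2 alone and limma-voom gave Col6a5 and Col8a2; the shares of all genes were not computed for these tools. Col1a1, Col1a2 and Col3a1 had unadjusted p of 0.066, 0.137 and 0.117 in DESeq2, and 0.077, 0.136 and 0.114 in limma-voom. Neither tool called a member after adjustment (DESeq2 called 0.00855% of all genes). With no filter on low counts edgeR called Col1a1, Col1a2 and Col3a1, where 0.576% of 16491 genes were called. By class, 7 of 7 fibrillar chains tested had a log2 fold change below 0, with a median of -0.55. The 5 type VI chains were all below 0 with a median of -0.41, the 5 basement membrane chains had 2 below 0 and a median of 0.016, and the 8 other chains had 4 below 0 and a median of 0.20. Over all genes tested 50.1% were below 0 and the median was -0.00073. Scaling by library totals moved that median to -0.12, with 7810 of the 11700 genes below 0. All 7 fibrillar and all 5 type VI chains stayed below 0 under each scaling tried, whereas the basement membrane median turned to -0.084 under library totals.

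**Figure D1:**
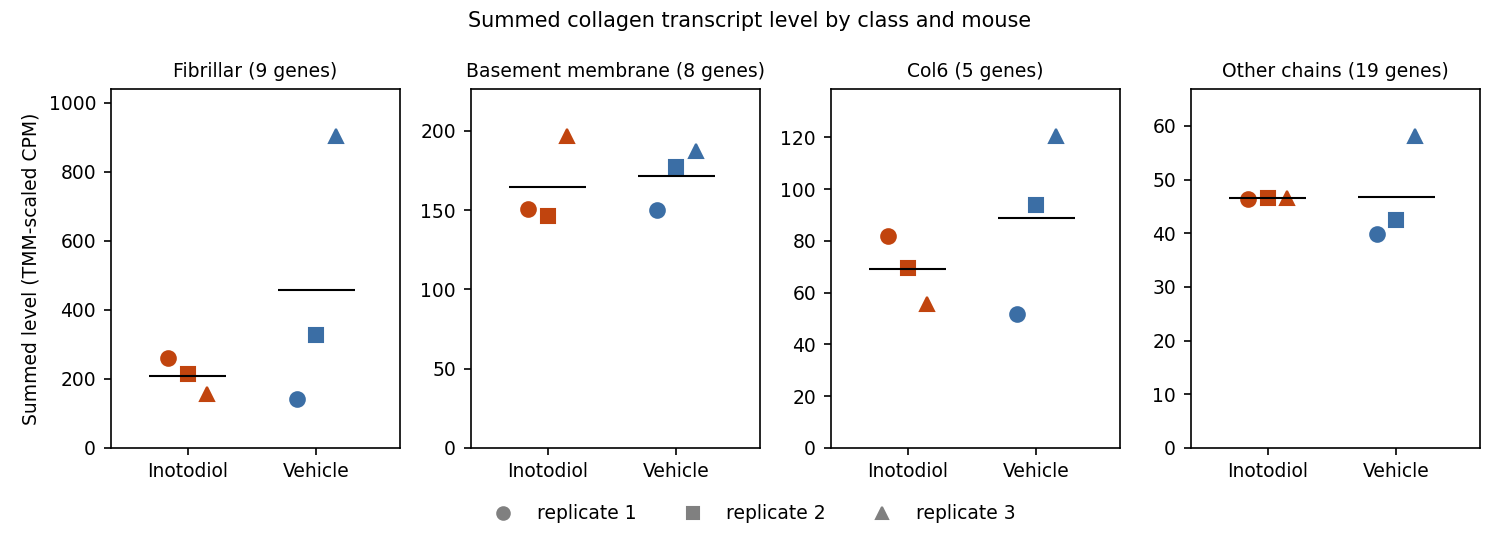
Summed TMM-scaled CPM of the chains of each class (y axis, linear, from 0) in each inotodiol and vehicle mouse (x axis); marker shapes give the replicate and lines the group mean of 3 mice. The fibrillar sum was 905 CPM in vehicle replicate 3 and at most 327 CPM in the other 5 libraries, while the basement membrane sums lay between 146 and 197 CPM.

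The fibrillar sum was 260.1, 213 and 155 CPM in inotodiol mice 1 to 3, against 141, 327 and 905 CPM in vehicle mice 1 to 3. The lowest and the highest library were both vehicle, so the groups overlapped. Apart from vehicle 3, the libraries with the lower sums, inotodiol 3 and vehicle 1, were also those with the lower Rn45s shares, whose part in these sums was not tested. Inotodiol mice averaged 209 ± 52.7 CPM and vehicle mice 458 ± 398 CPM (SD, n = 3 each), and without vehicle replicate 3 the vehicle mean was 234 CPM. Fibrillar chains made up 48.2%, 44.9% and 34.1% of all collagen CPM in inotodiol mice 1 to 3, against 36.9%, 51.0% and 71.2% in vehicle mice 1 to 3.

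Type I collagen is assembled from the chains of Col1a1 and Col1a2 and is the chief collagen of tendon and perimysium. Col1a1 (GRCm38 chromosome 11, 94936224 to 94953042) had 37.4, 31.7 and 22.2 CPM in inotodiol mice, against 28.9, 38.1 and 229 CPM in vehicle mice. The vehicle 3 value was 7.22 times the median of the other 5 libraries, which all lay between 22.2 and 38.1 CPM. The log2 fold change was -1.70 ± 0.56 (SE; 95% interval -2.91 to -0.49; edgeR adjusted p = 0.893). Without vehicle replicate 3 it was -0.14 ± 0.25, with an unadjusted p of 0.593. Without vehicle replicate 1 it moved the other way, to -2.13 ± 0.50 (edgeR adjusted p = 0.995).

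Col1a2 (chromosome 6, 4504814 to 4541544) had 123, 99.3 and 62.7 CPM in inotodiol mice, against 56.3, 163 and 407 CPM in vehicle mice. Its vehicle values spanned the whole range of the 6 libraries. The log2 fold change was -1.14 ± 0.47 (edgeR adjusted p = 0.962), and -0.21 ± 0.36 without vehicle replicate 3. It was -1.59 ± 0.33 without vehicle replicate 1, the lowest library (edgeR adjusted p = 0.995). Col3a1 (chromosome 1, 45311538 to 45349706), which encodes the sole chain of type III collagen of the finer interstitial fibres, had 51.9, 47.6 and 35.1 CPM in inotodiol mice, against 28.9, 79.5 and 194 CPM in vehicle mice. The 6 libraries stood in the same order for Col3a1 as for Col1a2. The log2 fold change of Col3a1 was -1.17 ± 0.45 (edgeR adjusted p = 0.962), and -0.27 ± 0.33 without vehicle replicate 3. It was -1.61 ± 0.30 without vehicle replicate 1, again the lowest library (edgeR adjusted p = 0.995).

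These 3 genes kept different proportions to one another. The ratio of Col3a1 to Col1a2 counts was 0.423, 0.479 and 0.560 in inotodiol mice, against 0.512, 0.488 and 0.476 in vehicle mice, a span of 1.33-fold over the 6 libraries. The ratio of Col1a1 to Col1a2 was 0.305, 0.320 and 0.355 in inotodiol mice, against 0.512, 0.234 and 0.564 in vehicle mice, a span of 2.41-fold. Col1a1 was therefore high relative to its partner chain in vehicle 1 and vehicle 3, and both ratios overlapped between groups.

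Type V chains stood less far out in vehicle replicate 3, at 1.93 times the median of the other libraries for Col5a1, 2.89 times for Col5a2 and 1.42 times for Col5a3. Col5a1, the chain found in most type V molecules, had 20.4, 10.4 and 19.4 CPM in inotodiol mice, against 10.0, 15.8 and 30.3 CPM in vehicle mice. Col5a2 had 10.4, 5.88 and 6.35 CPM in inotodiol mice, against 5.27, 9.50 and 18.4 CPM in vehicle mice. Vehicle 3 was the highest library for both, and vehicle 1 the lowest. Exons of Col5a1 overlap genes on the other strand over 212 bases, where reads cannot be assigned to a gene without the strand setting. Col5a3 had 15.9, 14.9 and 6.15 CPM in inotodiol mice, against 9.69, 19.8 and 21.1 CPM in vehicle mice. The log2 fold changes were -0.16 ± 0.36 for Col5a1, -0.55 ± 0.41 for Col5a2 and -0.45 ± 0.36 for Col5a3, with edgeR adjusted p of at least 0.963. Without vehicle replicate 3 they were 0.38 ± 0.33, 0.032 ± 0.40 and -0.26 ± 0.41.

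Of the cartilage-type fibrillar chains, Col11a1 was tested and had 1.30, 2.66 and 2.15 CPM in inotodiol mice, against 2.42, 1.73 and 2.46 CPM in vehicle mice. Col11a2 had 26 counts in all. Col2a1, the main collagen of cartilage, had 20 counts in vehicle replicate 3 and 0 in the other 5 libraries. Of the other cartilage markers, 4 of 6 listed were in the files. Matn1 and Matn3 were at 0 in all libraries, Acan reached 0.432 CPM at most, and Sox9 had 35.0, 32.0 and 50.5 CPM in inotodiol mice, against 40.3, 43.6 and 35.1 CPM in vehicle mice.

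Vehicle replicate 3 was the highest of the 6 libraries for 6 of the 7 fibrillar chains tested, 2 of 5 type VI chains, 2 of 8 other chains and 0 of 5 basement membrane chains. Over all genes tested it was the highest for 15.8%. It reached at least 2 times the median of the other libraries for 4 of 7 fibrillar chains and 2 of 5 type VI chains. The same held for 2 of 8 other chains, 0 of 5 basement membrane chains and 5.32% of all genes tested. Without that library the fibrillar median was -0.14, 5 of 7 chains were below 0 (49.0% of all genes), and no fibrillar chain had an unadjusted p under 0.05 (smallest 0.28), where 4.42% of all genes did.

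**Figure D2:**
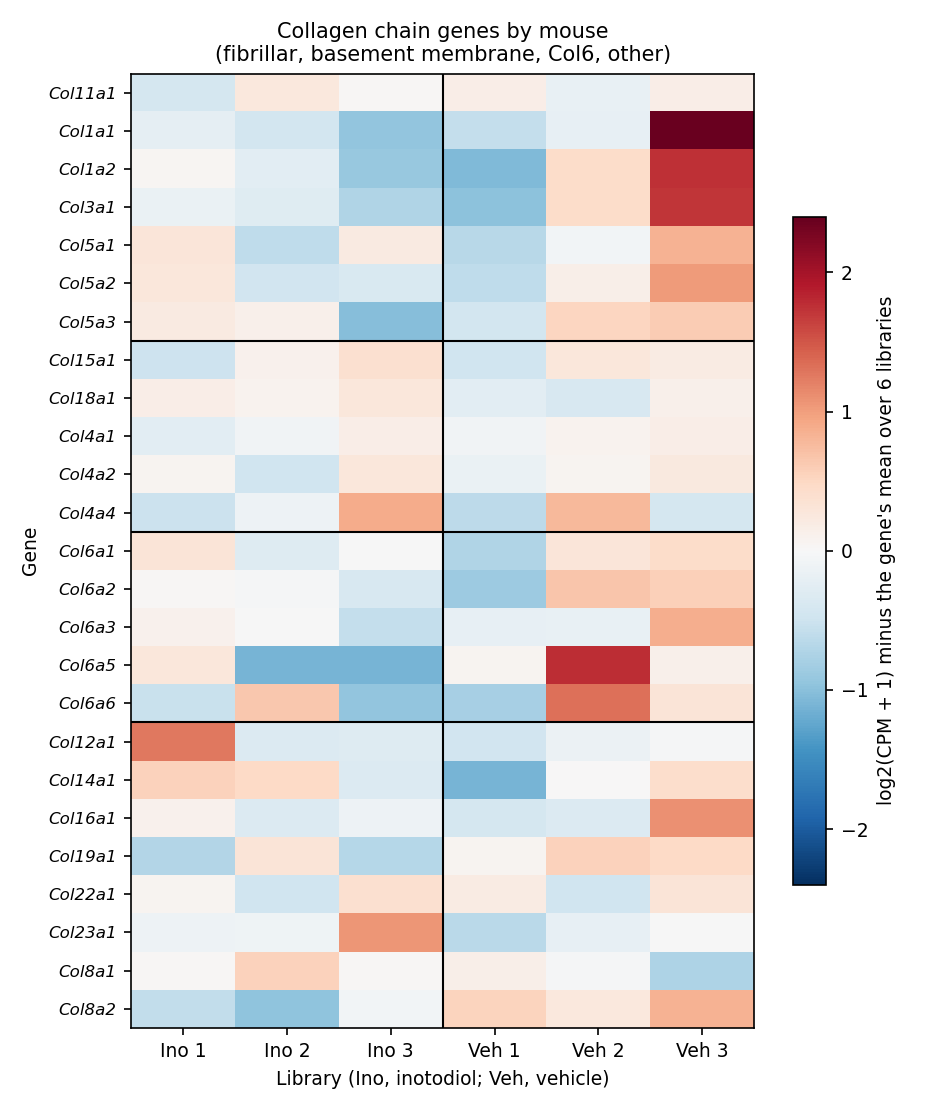
Deviation of log2(CPM + 1) from each gene's mean over the 6 libraries (colour) for the 25 chains tested (rows, grouped by class between black lines) in each library (columns). Vehicle replicate 3 is high for Col1a1, Col1a2 and Col3a1, whereas the basement membrane rows have no such column.

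The abundant type IV chains varied little between these libraries. Col4a1 (chromosome 8, 11198423 to 11312826, minus strand) had 74.1, 83.4 and 99.4 CPM in inotodiol mice, against 83.7, 94.3 and 98.7 CPM in vehicle mice. Col4a2 (chromosome 8, 11312805 to 11449287, plus strand) had 59.2, 40.3 and 67.9 CPM in inotodiol mice, against 50.3, 59.1 and 66.0 CPM in vehicle mice. The groups overlapped for both chains, which join in the common form of type IV collagen. The log2 fold changes were -0.11 ± 0.15 (95% interval -0.44 to 0.22) for Col4a1 and -0.066 ± 0.20 (-0.49 to 0.36) for Col4a2, so a doubling or a halving of either lay outside its interval. The annotated genes run in opposite directions from starts 21 bases apart and overlap by 22 bases, and reads there cannot be assigned to a gene without the strand setting. The ratio of Col4a1 to Col4a2 counts was 1.25, 2.07 and 1.46 in inotodiol mice, against 1.66, 1.60 and 1.50 in vehicle mice.

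The other type IV pairs lie head to head in the same way and were scarce. Col4a4 had 0.760, 1.33 and 3.69 CPM in inotodiol mice, against 0.632, 3.35 and 0.884 CPM in vehicle mice. Its neighbour Col4a3 had 30 counts in all, with starts 72 bases apart. Col4a5 had 17 counts and Col4a6 had 4, and these 3 did not pass the filter. Col15a1 had 8.79, 13.9 and 17.1 CPM in inotodiol mice, against 8.95, 15.7 and 14.7 CPM in vehicle mice, a log2 fold change of 0.016 ± 0.30. Col18a1, whose protein holds the endostatin fragment, had 6.94, 6.55 and 7.58 CPM in inotodiol mice, against 4.95, 4.43 and 6.68 CPM in vehicle mice, a log2 fold change of 0.39 ± 0.34 (edgeR adjusted p = 0.963). The inotodiol values of Col18a1 overlapped the vehicle range through vehicle 3 alone.

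The ratio of summed fibrillar to summed basement membrane counts does not depend on library scaling. It was 1.72, 1.46 and 0.787 in inotodiol mice, against 0.942, 1.84 and 4.83 in vehicle mice. The highest and the second highest values were both from vehicle mice, and the remaining vehicle value lay below 2 of the inotodiol values. The ratio thus spanned 6.13-fold over the 6 libraries, whereas that of other chains to basement membrane chains spanned 1.35-fold.

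Type VI collagen is assembled from Col6a1, Col6a2 and another chain that in muscle is mostly Col6a3. Its 5 genes summed to 81.9, 69.5 and 55.7 CPM in inotodiol mice, against 51.9, 94.0 and 121 CPM in vehicle mice. Col6a1 had 24.6, 15.8 and 19.6 CPM in inotodiol mice, against 11.7, 24.5 and 27.4 CPM in vehicle mice, a log2 fold change of -0.086 ± 0.29. Col6a2 had 18.4, 17.8 and 13.6 CPM in inotodiol mice, against 9.37, 29.4 and 27.5 CPM in vehicle mice, and -0.41 ± 0.34. Vehicle 1 was the lowest library for both. Col6a3 had 36.9, 34.0 and 22.5 CPM in inotodiol mice, against 29.5, 30.0 and 63.0 CPM in vehicle mice, and -0.39 ± 0.28. Without vehicle replicate 3 the estimates were 0.14 ± 0.32 for Col6a1, -0.22 ± 0.38 for Col6a2 and 0.065 ± 0.24 for Col6a3. The median over the 5 chains was -0.78 without vehicle replicate 1, -0.15 without vehicle replicate 2 and -0.22 without vehicle replicate 3, with 3 of 5 below 0 without vehicle 2 and without vehicle 3.

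The chains that can take the place of Col6a3 were scarce and uneven. Col6a5 had 1.63, 0 and 0 CPM in inotodiol mice, against 1.26, 6.37 and 1.38 CPM in vehicle mice. Col6a6 had 0.326, 2.00 and 0 CPM in inotodiol mice, against 0.105, 3.78 and 1.38 CPM in vehicle mice. Vehicle 2 was the highest library for both of these neighbouring genes on chromosome 9. The fitted log2 fold changes were -2.44 ± 1.17 and -1.18 ± 1.19, with 95% intervals that include 0, and they depend on how counts of 0 are handled. For Col6a5, 59 of 100 counts lay in vehicle 2, and the estimate was -1.26 without that library and -7.84 without inotodiol replicate 1, which leaves inotodiol at 0.

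The other chains held the 1 of 25 members tested whose groups did not overlap. Col8a2 (chromosome 4, 126286793 to 126314330) encodes a short chain of the network-forming type VIII collagen, known from vessel walls and the cornea. It had 2.60, 1.78 and 4.20 CPM in inotodiol mice, against 6.85, 5.51 and 8.74 CPM in vehicle mice. All inotodiol values lay below all vehicle values, as for 5.26% of all genes tested. The means were 2.86 ± 1.23 CPM in inotodiol mice and 7.03 ± 1.63 CPM in vehicle mice (SD, n = 3 each), a log2 fold change of -1.29 ± 0.42 (95% interval -2.20 to -0.38). It did not pass over all genes (edgeR adjusted p = 0.893), and with single libraries left out it ranged from -1.68 to -1.04.

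Col8a1 (chromosome 16, 57624258 to 57754737), the partner chain, did not share that order. It had 6.94, 10.4 and 6.87 CPM in inotodiol mice, against 7.58, 6.59 and 3.63 CPM in vehicle mice. The log2 fold change was 0.45 ± 0.36 (95% interval -0.33 to 1.22; edgeR adjusted p = 0.963). The ratio of Col8a1 to Col8a2 counts within a library was 2.67, 5.88 and 1.63 in inotodiol mice, against 1.11, 1.20 and 0.416 in vehicle mice. This was the 1 ratio of 13 chain pairs formed whose groups did not overlap. No share over other gene pairs was computed to set beside that count. The pairs were also chosen after the values were seen, so the ratio is given as a description.

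**Figure D3:**
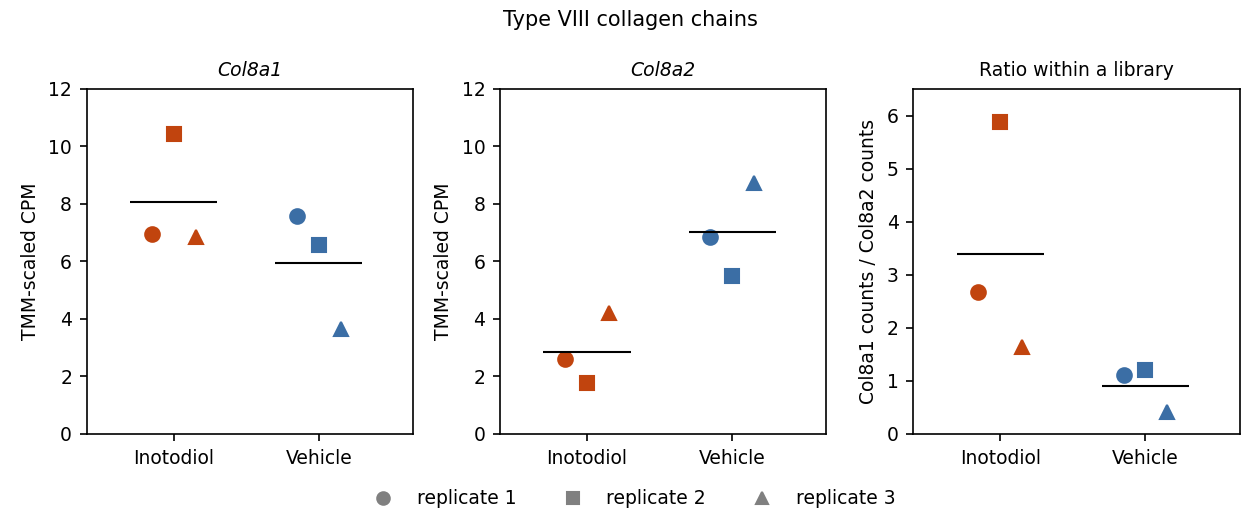
TMM-scaled CPM of Col8a1 and Col8a2 and the ratio of their counts (y axes, linear, from 0) in each inotodiol and vehicle mouse (x axes); marker shapes give the replicate and lines the mean of 3 mice. Col8a2 is at most 4.20 CPM in inotodiol mice and at least 5.51 CPM in vehicle mice, while the Col8a1 groups overlap.

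The sequences before the starts of Col8a1 and Col8a2 are shown because these partner chains differed in order between groups, with those of Col3a1 and Col5a1 as fibrillar chains that were high in vehicle replicate 3. They are read 5′ to 3′ on the gene's own strand from RefSeq (GRCm38.p6), and capitals mark CCGCCC or GGGCGG, the GC box letters that Sp1 can bind, and TATAAA, the TATA box letters.
Col8a1, chr16:57754738-57754987, minus strand: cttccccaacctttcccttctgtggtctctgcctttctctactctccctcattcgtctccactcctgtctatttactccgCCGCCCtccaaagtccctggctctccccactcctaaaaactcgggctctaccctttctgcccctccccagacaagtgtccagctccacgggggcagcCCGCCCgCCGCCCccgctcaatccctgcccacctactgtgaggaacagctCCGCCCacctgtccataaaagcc
Col8a2, chr4:126286544-126286792, plus strand: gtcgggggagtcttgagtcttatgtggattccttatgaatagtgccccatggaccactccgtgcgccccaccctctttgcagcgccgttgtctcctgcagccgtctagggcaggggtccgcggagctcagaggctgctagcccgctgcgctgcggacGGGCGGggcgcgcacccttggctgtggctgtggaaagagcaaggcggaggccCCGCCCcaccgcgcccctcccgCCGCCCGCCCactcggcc
Col3a1, chr1:45311288-45311537, plus strand: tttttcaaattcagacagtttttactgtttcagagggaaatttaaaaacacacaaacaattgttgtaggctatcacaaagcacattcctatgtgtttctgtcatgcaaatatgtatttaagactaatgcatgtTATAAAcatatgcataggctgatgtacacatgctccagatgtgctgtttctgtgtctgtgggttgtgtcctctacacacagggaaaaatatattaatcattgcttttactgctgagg
Col5a1, chr2:27886175-27886424, plus strand: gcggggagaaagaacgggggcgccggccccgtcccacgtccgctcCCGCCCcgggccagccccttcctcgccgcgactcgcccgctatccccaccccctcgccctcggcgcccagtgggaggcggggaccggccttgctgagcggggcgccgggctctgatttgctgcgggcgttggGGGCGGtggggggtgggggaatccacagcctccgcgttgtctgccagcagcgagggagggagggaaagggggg
Both type VIII windows held 4 matches to GGGCGG on either strand, 2 of which overlap by letters in Col8a2, and neither held TATAAA. The Col3a1 window held TATAAA 117 bases before the start and no GGGCGG, and its GC content was 35.2%, against 76.4% for Col5a1. Windows of 250 bases were matched for 32 of the 41 members, leaving Col1a1, Col2a1, Col4a3, Col5a2, Col9a3, Col12a1, Col14a1, Col22a1 and Col26a1 with none. These members had 35 windows, of which 20 held GGGCGG, against 32.7% of all 32851 windows, 12 held CCAAT, against 33.85%, and 4 held TATAAA, against 12.4%. The median GC content was 58.0% to 62.2% by class, against 52.4% over all windows, and its part in the GGGCGG count was not tested. A match is a description of letters and not a bound site.

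Among the remaining chains, Col14a1, a collagen that coats fibrils, had 12.2, 11.5 and 6.15 CPM in inotodiol mice, against 3.16, 8.10 and 11 CPM in vehicle mice. Col16a1, which also binds fibrils, had 4.88, 3.33 and 3.997 CPM in inotodiol mice, against 3.05, 3.35 and 10.7 CPM in vehicle mice. Vehicle 3 was the highest library for Col16a1 and not for Col14a1. The log2 fold change was 0.42 ± 0.42 for Col14a1, and ran from 0.056 without vehicle replicate 1 to 0.82 without vehicle replicate 3; for Col16a1 it was -0.49 ± 0.50, and 0.35 ± 0.50 without that library. Col19a1 had 2.60, 6.32 and 2.66 CPM in inotodiol mice, against 5.16, 7.67 and 7.17 CPM in vehicle mice, a log2 fold change of -0.79 ± 0.43 (edgeR adjusted p = 0.962). Col22a1, a marker of the junction between muscle and tendon, had 8.57, 5.55 and 10.9 CPM in inotodiol mice, against 9.48, 5.51 and 10.2 CPM in vehicle mice. Its log2 fold change was -0.012 ± 0.35 (95% interval -0.76 to 0.73), and replicate 2 was the lowest in each group.

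Col12a1, another fibril-coating collagen, and Col23a1, a membrane-spanning collagen, each rested on 1 inotodiol library. Col12a1 had 5.10, 0.999 and 1.02 CPM in inotodiol mice, against 0.843, 1.30 and 1.47 CPM in vehicle mice. Col23a1 had 1.19, 1.22 and 3.997 CPM in inotodiol mice, against 0.527, 1.08 and 1.38 CPM in vehicle mice. Without inotodiol replicate 1 the estimate for Col12a1 was -0.25, against 0.97 ± 0.78 with all libraries. Without inotodiol replicate 3 that for Col23a1 was 0.27, against 1.10 ± 0.77.

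The 16 members under the filter had 2 to 44 counts over all libraries, and 4 of them had counts in 1 library alone. They included Col13a1, a membrane collagen of the neuromuscular junction, with 23 counts in inotodiol replicate 3 and 2 to 6 in the others. They also included Col25a1, a membrane collagen needed for motor nerve entry into developing muscle in mice, with 0, 16 and 5 counts in inotodiol mice, against 0, 0 and 10 counts in vehicle mice. Col7a1, Col27a1 and Col9a1 had 33, 38 and 32 counts, Col20a1 had 29, Col24a1 had 14 and Col28a1 had 8. Col17a1 and Col26a1 had 4 counts each and Col9a3 had 2. These members were not tested in the filtered fit; with no filter on low counts Col2a1 alone of them had an unadjusted p under 0.05, and its counts are those of vehicle replicate 3.

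**Figure D4:**
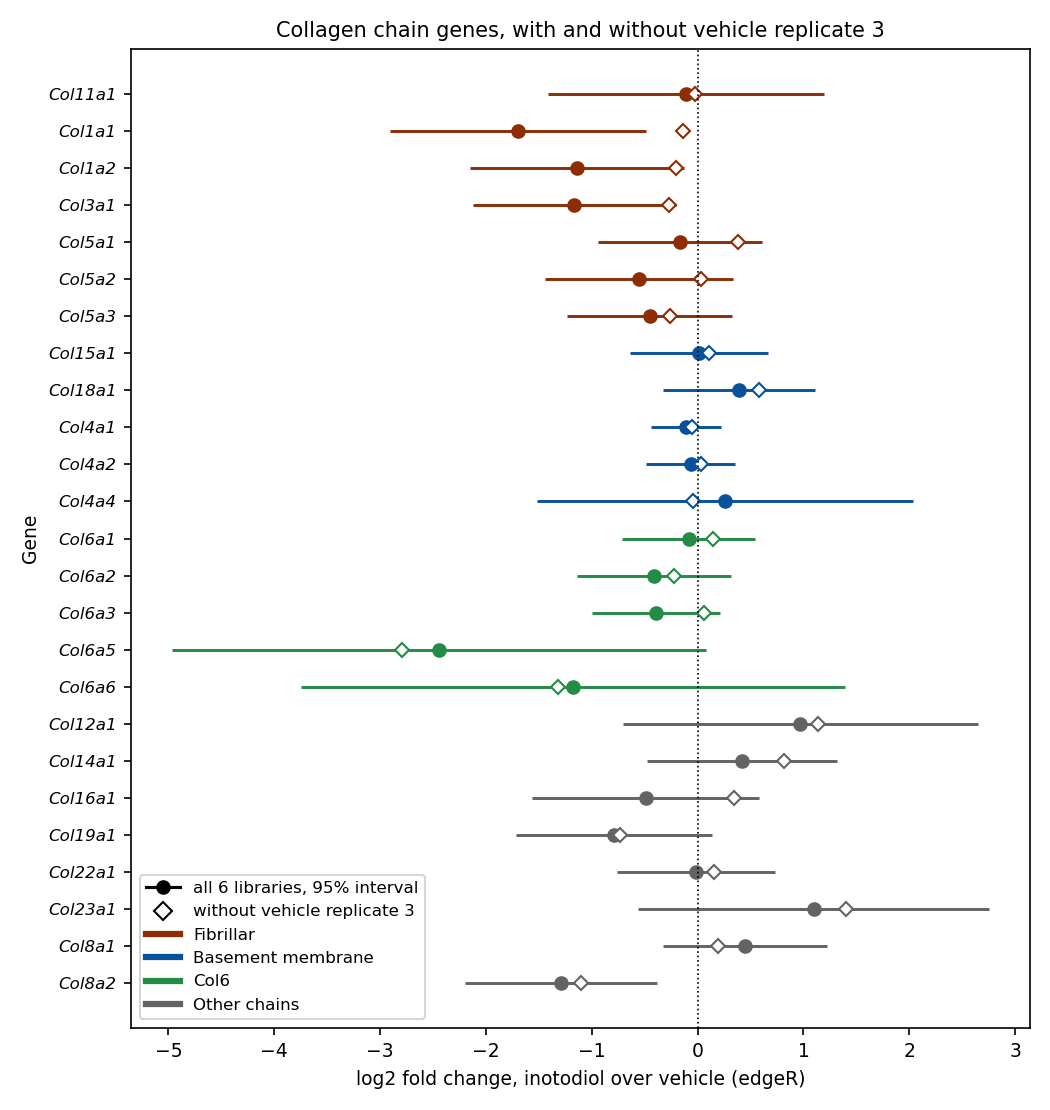
Log2 fold change of inotodiol over vehicle from edgeR (x axis) for the 25 chains tested (y axis, coloured by class); filled circles with lines are estimates from all 6 libraries with 95% intervals, open diamonds those without vehicle replicate 3. The Col1a1 estimate is -1.70 with all libraries and -0.14 without that library, while that of Col8a2 is -1.29 and -1.10.

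To compare levels between genes, CPM were divided by the length of the transcript with the longest coding sequence. Whether the counts rise with transcript length was not settled, so the order holds on the per-kilobase scale alone. In inotodiol mice Col1a2 averaged 17.7 ± 5.65 CPM per kb, followed by Col4a1 at 12.9 ± 1.93, Col4a2 at 8.65 ± 2.19, Col3a1 at 8.06 ± 1.56 and Col1a1 at 5.14 ± 1.29 CPM per kb (SD, n = 3). In vehicle mice the order was Col1a2 at 39.0 ± 33.6, Col3a1 at 18.1 ± 15.2, Col1a1 at 16.6 ± 19.1, Col4a1 at 13.9 ± 1.16 and Col4a2 at 9.06 ± 1.22 CPM per kb. The SDs of the 3 interstitial chains were large in the vehicle group, but the chains were measured in the same libraries. Ratios to Col1a2 counts in vehicle mice were 0.476 to 0.512 for Col3a1 and 0.234 to 0.564 for Col1a1. Col1a2, the shortest of the 3 transcripts, thus led both in each vehicle mouse. The order of Col3a1 and Col1a1, and that of each of the 3 chains with Col4a1, changed between vehicle mice. In inotodiol mice the gap between Col1a2 and Col4a1 was smaller than the SD of Col1a2, and Col4a2 and Col3a1, and likewise Col1a1 and Col6a1, stood closer together than their SDs. The tail of the order, from Col23a1 to Col6a5 in inotodiol mice, lay between 0.0584 and 0.378 CPM per kb.

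**Figure D5:**
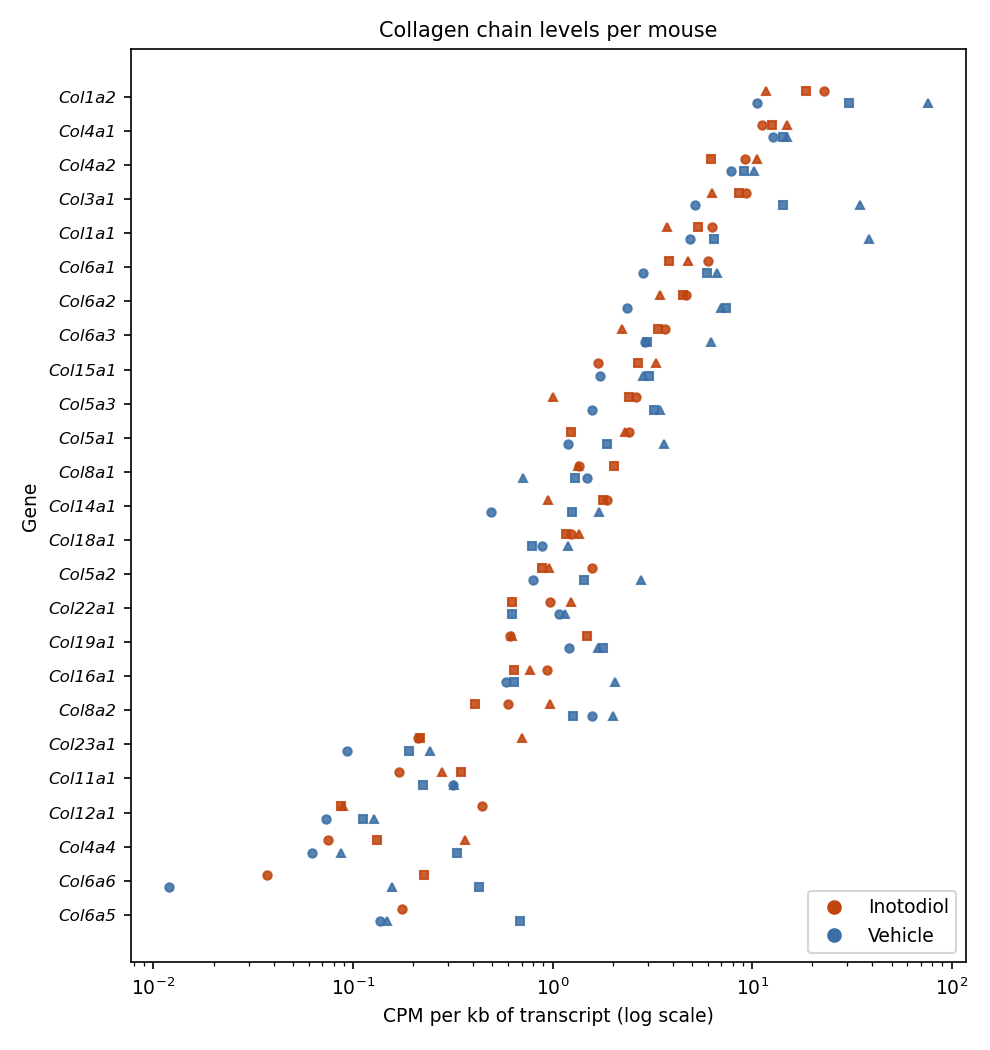
CPM per kb of transcript (x axis, log scale) of the 25 chains tested (y axis, ordered by the inotodiol mean) in each mouse; colour gives the group and marker shape the replicate (circle 1, square 2, triangle 3), and the values of 0 CPM (Col6a5 in inotodiol 2 and 3, Col6a6 in inotodiol 3) cannot be drawn. Col1a2, Col4a1, Col4a2, Col3a1 and Col1a1 lead, and vehicle replicate 3 (blue triangles) lies to the right of the rest for Col1a1, Col1a2 and Col3a1.

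Gene structure differed between the classes, though not between every fibrillar and every other chain. Coding exons of 54 bases, the unit from which the fibrillar helix is built, made up 239 of 528 coding exons in the 9 fibrillar genes, from 41.2% to 47.1% of those in each gene. They made up 16 of 377 in the basement membrane genes and 14 of 181 in the type VI genes. Among other chains the share ran from 0%, as in Col8a1 and Col8a2 with 2 coding exons each, to 55%. The highest were Col24a1 at 55% and Col27a1 at 54.1%, above every gene of the fibrillar class.

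Genes that act on collagen were described from 7 lists, none of whose members was called by edgeR over all genes. Procollagen folding and modification genes had 11 of 19 below 0 and a median log2 fold change of -0.039, and 0.0079 without vehicle replicate 3. Serpinh1, the collagen chaperone HSP47, had 12.4, 13.5 and 8.20 CPM in inotodiol mice, against 14.8, 19.2 and 19.1 CPM in vehicle mice, groups that did not overlap. Inotodiol values were the lower ones, as for 5.26% of all genes tested. The log2 fold change of Serpinh1 was -0.64 ± 0.26 (edgeR adjusted p = 0.962), and -0.58 without vehicle replicate 3. Plod3, a lysyl hydroxylase, stood at -0.75 ± 0.29, Colgalt1, which adds galactose to hydroxylysine, at 0.30 ± 0.17, and Tmem38b, an endoplasmic reticulum channel, at -0.32 ± 0.24.

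Propeptide cleavage and crosslinking genes had 7 of 9 below 0 and a median of -0.29, and -0.27 without vehicle replicate 3. Vehicle 3 was the highest library for 6 of the 9. The lysyl oxidase family members Loxl2 and Loxl3 stood at -0.84 ± 0.31 and -0.55 ± 0.30, Pcolce, which enhances propeptide removal, at -0.37 ± 0.19, and the procollagen peptidase gene Adamts2 at -0.52 ± 0.30. Fibril-associated proteoglycan and glycoprotein genes had 15 of 16 below 0 and a median of -0.26, and vehicle 3 was the highest library for 11 of them. Without vehicle replicate 3 that median was 0.017. Podn, Fmod, Sparc and Aspn stood at -0.58 ± 0.31, -0.43 ± 0.24, -0.29 ± 0.19 and -0.40 ± 0.27. Without vehicle replicate 3 Fmod, which binds type I fibrils, stood at -0.031 and Sparc, a collagen-binding glycoprotein gene, at 0.012.

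Basement membrane partner genes had 7 of 12 below 0 and a median of -0.070, and -0.096 without vehicle replicate 3. Lama4, a laminin chain of vessels, had 4.77, 6.88 and 5.33 CPM in inotodiol mice, against 11.3, 11.3 and 7.76 CPM in vehicle mice. These groups did not overlap, with inotodiol lower, as for 5.26% of all genes tested. The log2 fold change of Lama4 was -0.84 ± 0.31 (edgeR adjusted p = 0.962), and -0.996 without vehicle replicate 3. Lama2, the laminin chain of the muscle fibre, stood at -0.40 ± 0.25, Lamb1 at 0.21 ± 0.19 and Nid1 at -0.23 ± 0.21. Collagen degradation genes had 12 of 16 below 0 and a median of -0.46, and -0.16 without vehicle replicate 3. The lysosomal protease gene Ctsl stood at -0.40 ± 0.16, and the matrix metalloproteinase genes Mmp2, Mmp14 and Mmp15 at -0.55 ± 0.29, -0.45 ± 0.26 and -0.47 ± 0.27. Mmp2 stood at -0.18 and Mmp14 at -0.15 without vehicle replicate 3. Collagen receptor genes had 8 of 10 below 0 and a median of -0.22, and -0.12 without vehicle replicate 3. The collagen-sensing kinases Ddr2 and Ddr1 stood at -0.33 ± 0.24 and -0.24 ± 0.22, Adgrg1 at 0.28 ± 0.20 and Antxr1 at -0.34 ± 0.34.

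In the list of TGF-beta signalling and collagen transcription 13 of 21 genes were below 0. The median was -0.130, and -0.126 without vehicle replicate 3. Tgfbr2, the receptor that binds the ligand, had 11.6, 12.4 and 14.3 CPM in inotodiol mice, against 18.9, 23.0 and 23.4 CPM in vehicle mice. Ctgf, a matrix protein gene that TGF-beta induces, had 35.8, 66.5 and 67.4 CPM in inotodiol mice, against 77.1, 104 and 141 CPM in vehicle mice. The groups did not overlap for either gene, and vehicle 3 was the highest library for both. All inotodiol values lay below all vehicle values for 5.26% of all genes tested. The log2 fold changes of Tgfbr2 and Ctgf were -0.76 ± 0.22 and -0.92 ± 0.25, with edgeR adjusted p of 0.657 and 0.622. Without vehicle replicate 3 they were -0.71 and -0.68. Smad3, a signal transducer, stood at 0.37 ± 0.16. Tgfb1 and Tcf21 were listed at 0 in all libraries. The annotation used for counting was not given, and whether reads of these genes could be counted was not tested.

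Markers of cells that could carry collagen transcripts were read beside the fibrillar chains. The 12 fibroblast and fibro-adipogenic progenitor markers summed to 1691, 1449 and 1780 CPM in inotodiol mice, against 1467, 1641 and 1998 CPM in vehicle mice, and vehicle 3 was the highest library for 8 of the 12. The 9 tendon cell markers summed to 305, 279.5 and 338 CPM in inotodiol mice, against 256, 316 and 569 CPM in vehicle mice, with vehicle 3 the highest for 6 of the 8 tested. Tnmd, the tendon-specific tenomodulin gene, had 3.26, 3.88 and 5.33 CPM in inotodiol mice, against 2.11, 4.64 and 12.6 CPM in vehicle mice. Fmod is in both the tendon list and the fibril-associated list. The 10 macrophage markers summed to 197, 66.6 and 111 CPM in inotodiol mice, against 128, 107 and 264 CPM in vehicle mice, with vehicle 3 the highest for 6 of the 9 tested. All 3 lists were thus highest in vehicle replicate 3, and their part in the fibrillar values was not tested. The 9 endothelial markers, by contrast, summed to 174, 163 and 179 CPM in inotodiol mice, against 165, 145 and 154 CPM in vehicle mice. Markers of pericytes and smooth muscle summed to 153, 145 and 109 CPM in inotodiol mice, against 139, 112 and 119 CPM in vehicle mice, and the 7 adipocyte markers to 279, 372 and 482 CPM in inotodiol mice, against 495, 370 and 477 CPM in vehicle mice. Both sets of groups overlapped. The 8 Schwann cell markers, at 106, 104 and 202 CPM in inotodiol mice and 90.2, 70.4 and 97.3 CPM in vehicle mice, and the 7 hepatocyte markers, at 567, 237 and 80.9 CPM in inotodiol mice and 12.1, 68.5 and 42.6 CPM in vehicle mice, were higher in every inotodiol library. Their part in the collagen values was not tested.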

How the data were processed

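Transcript counts were analysed for 6 gastrocnemius libraries, 3 per group. Per the labels' protocols, 500 ng of RNA entered each Lexogen Quant-Seq library. The authors deposited raw counts for each gene symbol. Bowtie2, bedtools and mm10 are named in the submitters' processing notes; their versions, the annotation and the strand setting were not given in the sources used. Rows were kept by edgeR's filterByExpr (minimum count 10, minimum total 15), then TMM scaling was applied and the two-sided quasi-likelihood test of edgeR 4.0.16 (R 4.3.3) was run with group as its only term, Benjamini-Hochberg adjusted over all 11700 genes at 0.05. Standard errors came from the fitted weights and moderated quasi-dispersion. The p-values of edgeR set the group difference against the spread among 3 libraries per group, moderated over genes. Named chains were all types I, III, V, IV, XV, XVIII and VI chains past the filter, other chains of at least 5 CPM, and any with an unadjusted p under 0.05 or groups apart; Col11a1, Col12a1, Col16a1, Col23a1 and the scarce chains were added to account for every member. From each list up to 4 genes of at least 5 CPM with the smallest p were named, of which 1 is not reported here; Tnmd and Sox9 were chosen after their values were seen. Members and lists were chosen with earlier results of these data known. Other settings tried were scaling by RLE, by upper quartile or by library totals, removing the filter, requiring 1 CPM in all 6 libraries, DESeq2 1.42.0, limma-voom (limma 3.58.1), edgeR's robust option, the replicate block, a threshold of 0.10 and each library left out. The test was checked on simulated counts. Gene spans and lengths are from GENCODE M21 (GRCm38).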

Additional observations from a re-analysis of the deposited data

How the results depend on the processing

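No collagen chain was called in any setting except with no filter on low counts. There 3 of 41 chains passed in edgeR (Col1a1, adjusted p = 3.1e-05; Col3a1, 0.0021; Col1a2, 0.0026) among 95 of 16491 genes called (0.576%). Their estimates hardly moved while their SEs fell. Col1a1 stood at -1.69 ± 0.28 with no filter, against -1.70 ± 0.56 with it, and Col1a2 at -1.13 ± 0.24, against -1.14 ± 0.47. Col3a1 stood at -1.16 ± 0.24, against -1.17 ± 0.45. The cause of the smaller SEs was not tested. Over all genes DESeq2 called 1, and leaving out single libraries gave 0 to 25, the highest without inotodiol replicate 3. The fibrillar median log2 fold change ran from -0.89 to -0.14 when single libraries were dropped (-0.14 without vehicle replicate 3) and from -0.68 to -0.48 in the other settings, where 7 of 7 chains stayed below 0. The median of other chains was -0.25 with 1 CPM required in all 6 libraries, which tested 6 of them, and -0.14 to 0.27 when 1 library was dropped. Library-total scaling moved the median of all genes to -0.12, the TGF-beta list to -0.24 and Col15a1 to -0.084. Dropping 1 library at a time, the collagen degradation median ranged from -0.49 to -0.16 and the receptor median from -0.38 to -0.11. The sign turned in at least 1 such run for Col11a1 (-0.35 to 0.13), Col5a1 (-0.46 to 0.38), Col5a2 (-0.89 to 0.032), Col15a1 (-0.21 to 0.24), Col4a2 (-0.23 to 0.12), Col4a4 (-0.62 to 1.34), Col6a1 (-0.38 to 0.14), Col6a3 (-0.58 to 0.065), Col6a6 (-3.35 to 0.051), Col12a1 (-0.25 to 1.33), Col16a1 (-0.79 to 0.35) and Col22a1 (-0.25 to 0.21). When 1 library was dropped the type VI median ran from -0.78 to -0.15. Deviations of same-numbered libraries correlated at -0.081, 0.108 and 0.022, so the numbers were not taken as pairs; with the replicate block 0 chains and 0 genes were called and the fibrillar median was -0.48. Where a run leaves 2 libraries in a group, spread is pooled over genes and groups. With 3 libraries per group the SE was 0.28 for the median gene, and scarce chains were less precise.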
